A study of Mus musculus with 2 samples.

Results

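Bdnf, Ntf3, Artn, Gdnf, Npy and Penk, 6 secreted factors of nerve growth and nerve signalling, were followed through the cell types of the mouse knee. They were taken by symbol from the 32285 genes of the deposited count matrices, and each symbol matched 1 row. The list was drawn up by gene family, with earlier results of these data known. Cells came from knee joint cartilage of wild-type (WT) mice, 1 library after DMM, destabilization of the medial meniscus, which leads to osteoarthritis, and 1 library after sham surgery. Each library pooled 3 mice, and the labels used here give no age and no time after surgery. In both groups the labels describe superficial cells of the joint cartilage, digested with collagenase and dispase and sorted by flow cytometry. The gate kept live cells that lacked CD45 (leukocytes), Ter119 (erythroid cells) and CD31 (endothelium). With 1 library a group no test between DMM and sham was possible. Values in brackets are 95% intervals for counting error alone. They leave out the spread between mice, cells and preparations, and UMIs (unique molecular identifiers, 1 for each captured transcript) of 1 cell are not independent.

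Neurotrophins are secreted dimers that bind Trk receptor kinases. Bdnf encodes brain-derived neurotrophic factor, the ligand of TrkB (Ntrk2), and Ntf3 encodes neurotrophin-3, the main ligand of TrkC (Ntrk3). Gdnf (glial cell line-derived neurotrophic factor) and Artn (artemin) belong to the GDNF family, whose members bind a GFRα co-receptor (Gfra1 for Gdnf, Gfra3 for Artn) and signal through the kinase Ret. Npy encodes the precursor of neuropeptide Y, a transmitter of sympathetic nerves that acts on the receptors Npy1r, Npy2r and Npy5r. Penk encodes proenkephalin, which prohormone convertases cut into enkephalins, the ligands of the delta and mu opioid receptors (Oprd1, Oprm1). Joints are supplied by sensory and sympathetic nerves, whose cell bodies lie outside the joint, so a nerve's own mRNA for these genes is largely made elsewhere.

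On GRCm38, with GENCODE vM21, Bdnf lies at chr2:109674700-109727007 on the plus strand, Ntf3 at chr6:126101412-126166910 on the minus strand, and Artn at chr4:117926162-117929763 on the minus strand. Gdnf lies at chr15:7810846-7837575 and Npy at chr6:49822710-49829507, both on the plus strand, and Penk at chr4:4133531-4138819 on the minus strand. The antisense gene Gm45346 overlaps Bdnf, and A830012C17Rik on the opposite strand overlaps Penk. Whether reads in introns were counted is not given in the sources used here.

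The windows of 250 bases before a start are shown for Npy, Ntf3 and Artn, each highest in 1 cluster in both libraries, 5′ to 3′ on the gene's own strand. For Artn in DMM the interval of that cluster overlapped the next. They come from RefSeq (GRCm38.p6), which matched 5 of the 6 genes, and matches to a GC box (GGGCGG on either strand) or an E-box (CACGTG) are in capitals. Npy, highest in a cluster led by Angptl7 and Dmkn, is shown at chr6:49822460-49822709. Ntf3, highest in contractile perivascular cells, has 2 starts, at chr6:126166745-126166994 and chr6:126164961-126165210. Artn, highest in hypertrophic chondrocytes, is shown at chr4:117929764-117930013.
Npy: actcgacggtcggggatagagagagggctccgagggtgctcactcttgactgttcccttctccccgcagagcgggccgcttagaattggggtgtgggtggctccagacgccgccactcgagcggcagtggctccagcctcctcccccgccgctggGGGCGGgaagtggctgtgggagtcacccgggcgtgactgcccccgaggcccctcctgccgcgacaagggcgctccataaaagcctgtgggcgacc
Ntf3 start 1: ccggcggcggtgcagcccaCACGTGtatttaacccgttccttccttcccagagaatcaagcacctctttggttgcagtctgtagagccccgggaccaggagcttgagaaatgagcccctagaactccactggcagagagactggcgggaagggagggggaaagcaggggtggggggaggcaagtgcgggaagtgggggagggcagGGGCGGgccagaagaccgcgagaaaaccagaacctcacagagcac
Ntf3 start 2: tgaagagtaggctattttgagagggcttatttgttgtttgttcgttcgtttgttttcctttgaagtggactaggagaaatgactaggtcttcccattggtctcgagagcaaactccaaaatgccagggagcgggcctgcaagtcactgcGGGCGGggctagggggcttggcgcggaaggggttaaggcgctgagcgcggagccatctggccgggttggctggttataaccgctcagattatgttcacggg
Artn: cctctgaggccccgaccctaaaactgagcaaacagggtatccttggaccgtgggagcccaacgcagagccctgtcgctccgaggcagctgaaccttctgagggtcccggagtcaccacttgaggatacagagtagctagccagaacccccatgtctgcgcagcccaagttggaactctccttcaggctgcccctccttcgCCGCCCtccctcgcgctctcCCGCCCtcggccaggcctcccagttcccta
A GC box began 95 bases before the Npy start, 45 and 101 bases before the Ntf3 starts, and 50 and 30 bases before the Artn start. An E-box began 231 bases before the first Ntf3 start. Of all 32851 windows of this length, 32.7% held a GC box and 6.02% an E-box. Neither a CArG box, the serum response factor motif of smooth muscle genes, which 1.47% of windows held, nor a cyclic AMP response element (TGACGTCA, 1.55% of windows) was found in these 4 windows. A TATA box (TATAAA, 12.4% of windows) was found in a Gdnf window and in none of these 4. These matches describe the letters and are not evidence of binding.

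The DMM library held 11076 barcodes and 97346999 UMIs, the sham library 11362 barcodes and 106799078 UMIs, and 24 barcodes occurred in both. After filtering, 9529 DMM and 9529 sham cells remained, with medians of 7859 UMIs in DMM and 8064 UMIs in sham. Connective tissue cells numbered 8382 in DMM and 7611 in sham. Beyond the labelled superficial cells, the clusters included synovial lining-like, perivascular-like, osteoblast-like and marrow stromal-like cells, so the labelled tissue was mixed. Despite the Ter119 gate, 897 DMM and 1527 sham cells were erythroid-like, and the haemoglobin gene Hbb-bs had UMIs in 65.5% of connective tissue cells in DMM and 80.7% in sham. Free RNA in droplets can give UMIs of this kind. Col2a1 was present in 65.1% of connective tissue cells in DMM and 79.2% in sham, and the superficial zone gene Prg4 in 87.8% of DMM and 81.7% of sham cells.

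Cells fell into 25 clusters, named below by 2 leading genes. Clusters were made without these 6 genes among the variable genes, so their levels did not shape them. Of the connective tissue clusters, 15 held at least 50 cells in each library. Levels are CPM, the gene's UMIs per 1000000 UMIs of the cluster. Levels are compared between cells and libraries and not between genes.

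Over connective tissue, Artn and Ntf3 were lower in DMM, Bdnf was higher, and Gdnf, Npy and Penk lay near equality. With at least 50 UMIs and a change of at least 1.5-fold as the mark, 0 of 6 genes were higher in DMM, against 4.24% of 16564 genes at that depth, and 2 of 6 were lower, against 15.4%. The median log2 ratio over all those genes was -0.16. Artn had 67 UMIs in DMM and 154 in sham, 0.882 CPM in DMM and 2.02 CPM in sham, and was 2.29-fold [1.71, 3.10] lower in DMM. Thinned to 2000 UMIs a cell it kept 15 UMIs in DMM and 17 in sham, and the log2 ratio of -0.32 was then under the 1.5-fold mark. Its level in DMM lay near that of erythroid-like cells, 0.782 CPM in DMM and 0.925 CPM in sham. Ntf3 had 235 UMIs in DMM and 402 in sham, 3.09 CPM in DMM and 5.27 CPM in sham, and was 1.70-fold [1.45, 2.01] lower. Bdnf had 129 UMIs in DMM and 90 in sham, 1.70 CPM in DMM and 1.18 CPM in sham, 1.44-fold [1.09, 1.91] higher in DMM. Without the top cell of each library that ratio was 1.56. Of the 2 clusters with most Bdnf UMIs, Clic5/Pla1a stood lower in DMM, with overlapping intervals (3.37 CPM in DMM, 4.18 CPM in sham). Tnn/Mmp13 stood higher (4.60 CPM in DMM, 1.56 CPM in sham). Clic5/Pla1a held 873 DMM and 364 sham cells, and Tnn/Mmp13 held 1046 DMM and 601 sham cells. The part of cell mix in the pooled Bdnf ratio was not tested. Gdnf had 107 UMIs in DMM and 105 in sham, a ratio of 1.02 [0.775, 1.35]. Npy had 4028 UMIs in DMM and 4239 in sham, a ratio of 0.955 [0.914, 0.997], and Penk 6514 UMIs in DMM and 6667 in sham, a ratio of 0.981 [0.948, 1.02].

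**Figure D1:**
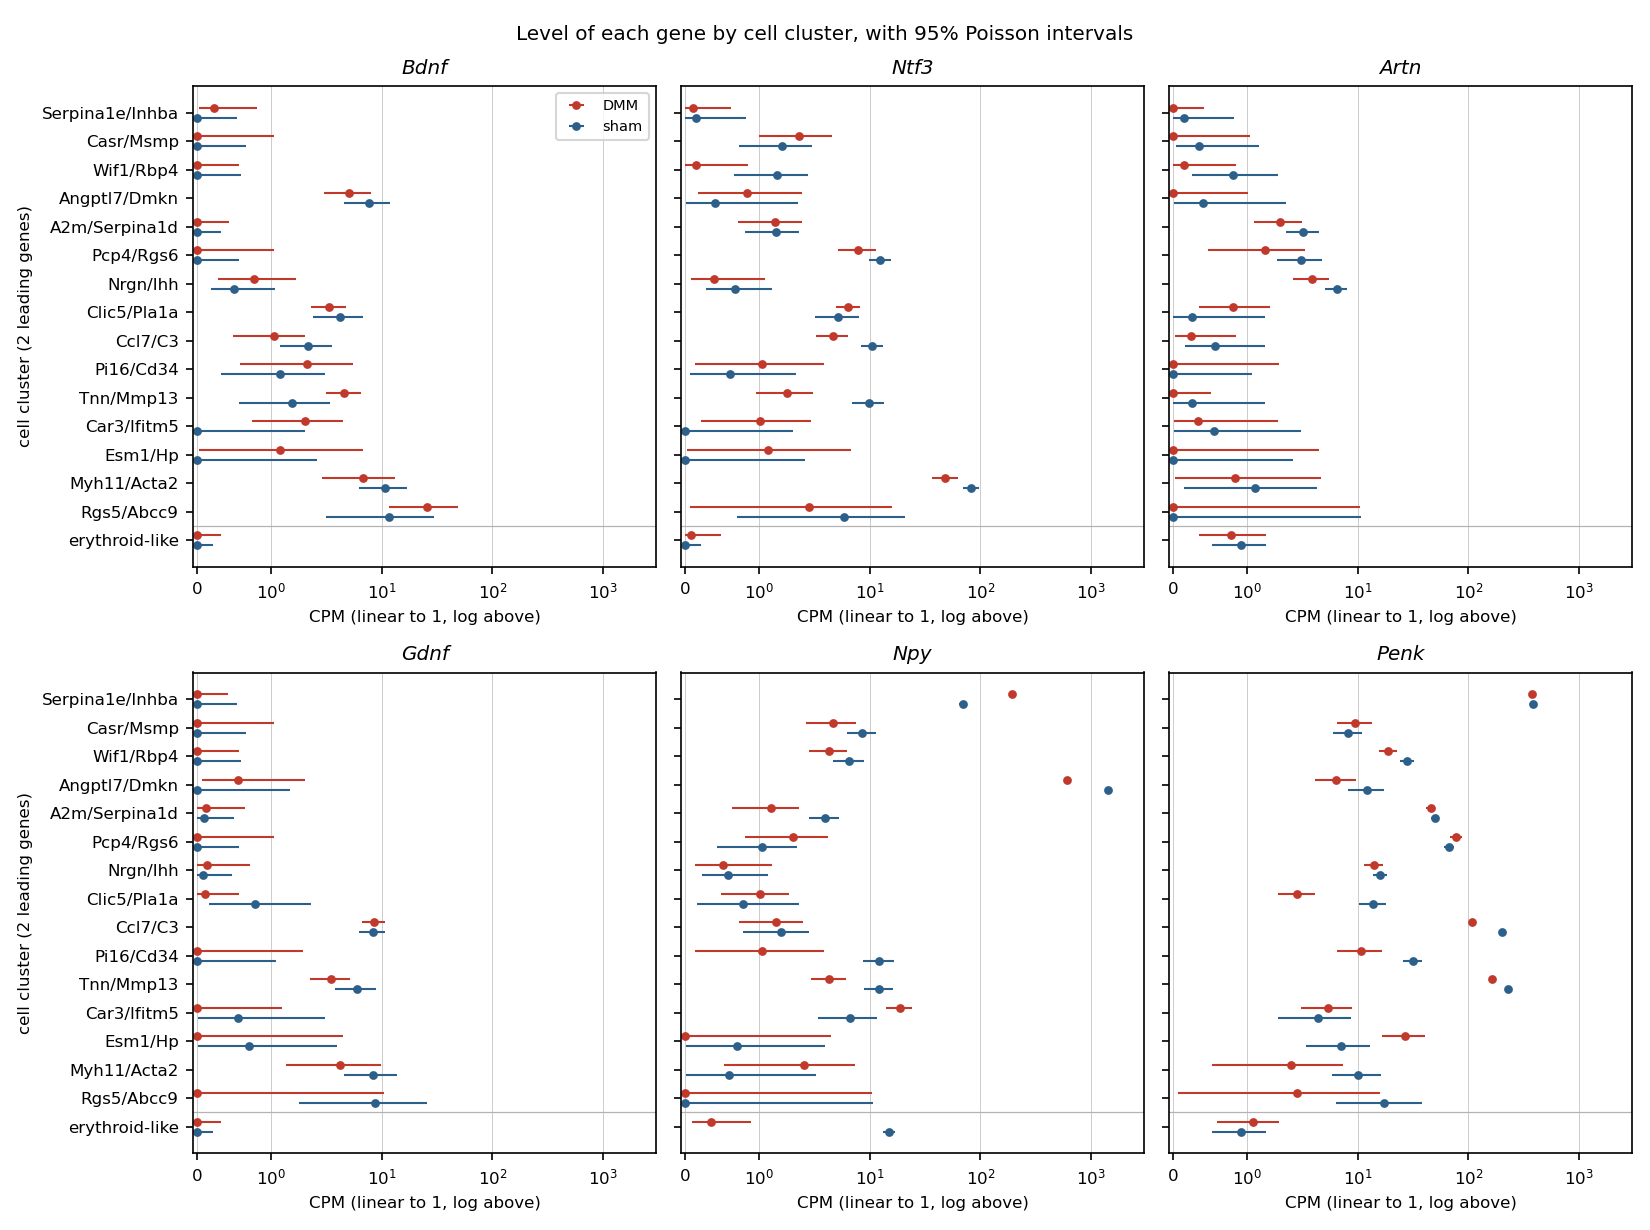
Level of each gene in CPM (linear to 1 and logarithmic above) in 15 connective tissue clusters and erythroid-like cells, DMM red and drawn above sham blue, with 95% Poisson intervals. Npy stands highest in the Angptl7/Dmkn cluster (600.1 CPM in DMM, 1410 in sham), Penk in Serpina1e/Inhba (376 CPM in DMM and 387 CPM in sham) and Ntf3 in Myh11/Acta2 (48.1 CPM in DMM and 82.2 CPM in sham).

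Most Npy UMIs lay in 2 clusters, and the DMM to sham ratio had opposite signs in them. The Angptl7/Dmkn cluster, unnamed, with fibrous genes such as Lox and Abi3bp among its leading 10, held 53.2% of the library's Npy UMIs in DMM and 77.7% in sham. The Serpina1e/Inhba cluster, also unnamed, held 42.3% in DMM and 10.5% in sham. There 5 of the 6 superficial zone markers passed, but genes of other lists led it. In the Angptl7/Dmkn cluster Npy stood at 600.1 CPM in DMM and 1410 CPM in sham, and the log2 ratio was -1.23 [-1.31, -1.15]. In the Serpina1e/Inhba cluster it stood at 192 CPM in DMM and 69.7 CPM in sham, a log2 ratio of 1.47 [1.32, 1.62]. Without the top cell of each library the log2 ratio was -1.22 in Angptl7/Dmkn and 1.84 in Serpina1e/Inhba. No test of the difference between the clusters was possible.

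Npy transcripts were held by few cells. In Angptl7/Dmkn, 123 of 512 DMM cells (24.0% [20.4, 28.0]) and 129 of 336 sham cells (38.4% [33.2, 43.8]) had at least 1 UMI, with 17.4 UMIs per positive cell in DMM and 27.1 in sham. In Serpina1e/Inhba, 88 of 947 DMM cells (9.29%) and 37 of 650 sham cells (5.69%) were positive. The top cell held 18.8% of that cluster's Npy UMIs in DMM and 37.5% in sham, and the 5 highest DMM cells and 2 highest sham cells held at least 50%. In erythroid-like cells, 0.446% of DMM and 0.589% of sham cells were positive, at median depths of 9387 UMIs in DMM and 7924 UMIs in sham, against 7920 in DMM and 8380 in sham for connective tissue. Thinned to 2000 UMIs a cell, the positive share in Angptl7/Dmkn was 18.7% in DMM and 32.4% in sham, after 21 DMM and 6 sham cells were left out.

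**Figure D2:**
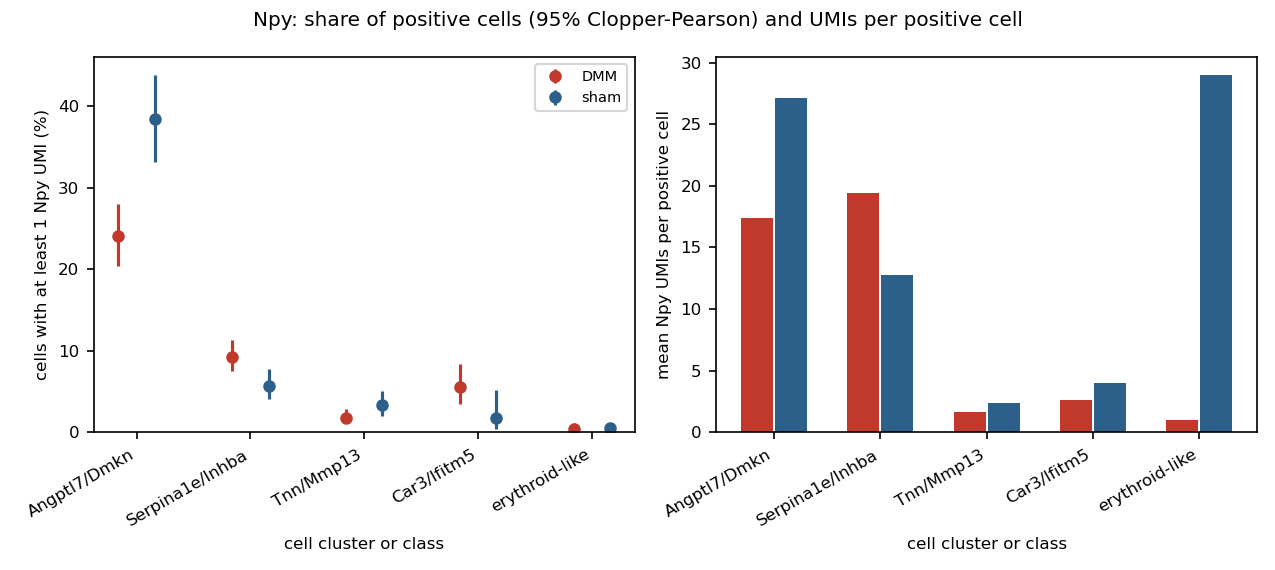
Npy in 5 cell groups, DMM red and left of sham blue: share of cells with at least 1 UMI (left panel, with 95% Clopper-Pearson intervals) and mean UMIs per positive cell (right panel). The Angptl7/Dmkn share is 24.0% in DMM and 38.4% in sham, and the erythroid-like mean in sham (29.0 UMIs) rests on 9 positive cells.

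Several smaller Npy values rested on single cells. In the erythroid-like Car1/C1qtnf12 cluster, DMM had 0 UMIs and sham 256 UMIs in 4 of 490 cells, and 1 cell held 79.7% of them. In the chondrocyte-like A2m/Serpina1d cluster Npy had 11 UMIs in DMM and 44 in sham, where 1 cell held 95.5%, and the log2 ratio of -1.61 became 2.39 without the top cells. In Casr/Msmp, superficial zone chondrocyte-like cells, the log2 ratio of -0.88 became 0.33. In Car3/Ifitm5, osteoblast-like cells, Npy had 55 UMIs in DMM and 12 in sham, with 45.5% of the DMM UMIs and 83.3% of the sham UMIs in 1 cell. Of the neuron markers Tubb3, Snap25, Elavl4, Prph, Stmn2, Nefl and Rbfox3, Snap25, Elavl4, Stmn2 and Nefl were at 0 in both main Npy clusters in both libraries. The summed level of the 7 was 8.96 CPM in DMM and 12.1 CPM in sham in Angptl7/Dmkn, and 6.66 CPM in DMM and 6.94 CPM in sham in Serpina1e/Inhba. The 7 Schwann or glial markers summed to 32.2 CPM in DMM and 39.9 CPM in sham in Angptl7/Dmkn, and to 166.5 CPM in DMM and 167 CPM in sham in Serpina1e/Inhba, where Ncmap alone stood at 146 CPM in DMM and 145 CPM in sham and Foxd3 was at 0. The 7 erythroid markers, led by Hbb-bs, summed to 1080 CPM in DMM and 3174 CPM in sham in Angptl7/Dmkn, and to 1034 CPM in DMM and 1962 CPM in sham in Serpina1e/Inhba. Their part in the Npy ratios was not tested.

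The leading genes of Angptl7/Dmkn did not all run one way between its Npy-positive and Npy-negative cells. Of the 10, Spp1, Abi3bp, Slurp1 and Dmkn stood higher in positive cells in both libraries, and Fgf9 lower in both. Spp1, which encodes osteopontin, stood at 12135 CPM in positive and 5111 CPM in negative DMM cells, and at 12700 CPM in positive and 3280 CPM in negative sham cells. Angptl7, Galnt15, Igfbp6, Nox4 and Lox stood higher in positive DMM cells but lower in positive sham cells. Angptl7 had 1383 CPM in positive and 1070 CPM in negative DMM cells, and 2266 CPM in positive and 3358 CPM in negative sham cells. Of the 10 leading genes of Serpina1e/Inhba, 7 stood higher in these same positive cells in both libraries, and Serpina1e itself lower in both. Ecrg4 had most of their UMIs, at 9409 CPM in positive and 3775 CPM in negative DMM cells, and at 12839 CPM in positive and 3901 CPM in negative sham cells. Inhba, a subunit of activin A, stood at 396 CPM in positive and 216 CPM in negative DMM cells, and at 516 CPM in positive and 213 CPM in negative sham cells. Positive cells were deeper, with medians of 7571 UMIs in positive and 5629 in negative DMM cells, and of 8064 in positive and 5501 in negative sham cells.

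Inside Serpina1e/Inhba, 3 of its own 10 leading genes, Inhba, Hmga2 and Cd14, stood higher in Npy-positive cells in both libraries, and 5, Ecrg4, Serpina1e, Chst5, Smoc2 and Krt17, lower in both. Inhba had 3283 CPM in positive and 1665 CPM in negative DMM cells, and 4035 CPM in positive and 1907 CPM in negative sham cells. Ecrg4 had 20338 CPM in positive and 31940 CPM in negative DMM cells, and 20302 CPM in positive and 25604 CPM in negative sham cells.

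Penk was the most widely detected of the 6 genes, with UMIs in 1460 DMM (17.4%) and 1581 sham (20.8%) connective tissue cells, against 1.23% of erythroid-like cells in DMM and 0.982% in sham. Among the 15 clusters its first 5 had the same order in both libraries, and their intervals did not overlap. Serpina1e/Inhba led, with 376 CPM in DMM and 387 CPM in sham. Tnn/Mmp13, an unnamed cluster with Postn and Sfrp2, followed at 164 CPM in DMM and 229.6 CPM in sham. Ccl7/C3, fibroblast-like cells with chemokine and complement genes, stood at 108 CPM in DMM and 201 CPM in sham, and Pcp4/Rgs6, chondrocyte-like cells, at 77.2 CPM in DMM and 67.0 CPM in sham. A2m/Serpina1d, the other large chondrocyte-like cluster, stood at 45.6 CPM in DMM and 50.4 CPM in sham.

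Among clusters with at least 50 Penk UMIs over both libraries, the ratio was lowest in Clic5/Pla1a and then in Pi16/Cd34. In Clic5/Pla1a, synovial lining-like cells, it had 28 UMIs in DMM and 53 in sham and was 4.85-fold [3.01, 7.96] lower in DMM, from 15 of 873 DMM and 21 of 364 sham cells. In Pi16/Cd34, fibroblast-like cells that express Dpp4, it stood at 10.7 CPM in DMM and 31.4 CPM in sham, a log2 ratio of -1.56 [-2.33, -0.86]. In Ccl7/C3 it was 1.86-fold [1.71, 2.03] lower in DMM, with 321 of 1238 DMM cells and 382 of 959 sham cells positive. In Serpina1e/Inhba the log2 ratio was -0.04 [-0.12, 0.03], and 0.16 without the top cells, which held 6.84% of UMIs in DMM and 19.4% in sham. Esm1/Hp, marrow stromal-like cells, had 22 UMIs in DMM and 10 in sham, 26.5 CPM in DMM and 7.08 CPM in sham, a log2 ratio of 1.91 [0.77, 3.15].

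Npy and Penk met in Serpina1e/Inhba. There 45 of 88 Npy-positive DMM cells (51.1%) and 11 of 37 in sham (29.7%) also had Penk, against 32.6% of Npy-negative cells in DMM and 29.4% in sham. Npy-positive cells had medians of 9752 UMIs in DMM and 11799 in sham, and negative cells 8137 in DMM and 9066 in sham. In Angptl7/Dmkn, 7 of 123 Npy-positive DMM cells and 6 of 129 in sham had Penk. Across connective tissue 6386 DMM and 5447 sham cells had none of the 6 genes. A single gene was found in 1852 DMM and 2022 sham cells, 2 genes in 138 DMM and 139 sham cells, and 3 genes in 6 DMM and 3 sham cells.

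Ntf3 was highest in Myh11/Acta2 cells, perivascular-like cells with the contractile genes Myh11, Acta2 and Tagln of smooth muscle. It had 57 UMIs there in DMM and 139 in sham, and 48.1 CPM in DMM and 82.2 CPM in sham. Positive cells numbered 51 of 248 in DMM (20.6%) and 94 of 306 in sham (30.7%), and no cell held over 3.60% of the UMIs. The log2 ratio was -0.77 [-1.25, -0.32], close to that over all connective tissue. Thinned to 2000 UMIs, 9.09% of DMM and 15.2% of sham cells were positive. In sham the next levels, 12.4 CPM in Pcp4/Rgs6, 10.6 CPM in Ccl7/C3 and 9.85 CPM in Tnn/Mmp13, had overlapping intervals and lay below the perivascular one. In DMM Pcp4/Rgs6 stood at 7.81 CPM, lining-like Clic5/Pla1a at 6.43 CPM and Ccl7/C3 at 4.64 CPM, also overlapping. In Tnn/Mmp13 it had 13 UMIs in DMM and 38 in sham, of which 1 sham cell held 47.4%, and the log2 ratio was -2.44, or -2.05 without the top cells. Lining-like cells had 6.43 CPM in DMM and 5.22 CPM in sham, a log2 ratio of 0.30 [-0.45, 1.10]. In Myh11/Acta2 the 7 endothelial markers summed to 4.22 CPM in DMM and 5.91 CPM in sham, with Cdh5 and Kdr at 0, and the 7 erythroid markers to 2348 CPM in DMM and 6769 CPM in sham. The part of the erythroid RNA in the Ntf3 ratio was not tested. Ntf3 had 1 UMI in erythroid-like cells in DMM and 0 in sham.

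Bdnf was sparse and spread over perivascular-like, lining-like and fibrous cells, and A2m/Serpina1d, Pcp4/Rgs6 and Casr/Msmp cells held none in either library. Hypertrophic chondrocyte-like Nrgn/Ihh cells held 6 UMIs in DMM and 6 in sham, 0.777 CPM in DMM and 0.504 CPM in sham. Rgs5/Abcc9, the smaller perivascular-like cluster, had 9 UMIs from 73 DMM cells and 4 from 78 sham cells, 25.6 CPM in DMM and 11.6 CPM in sham. Its top cell held 55.6% of those UMIs in DMM and 75.0% in sham. Myh11/Acta2 stood at 6.74 CPM in DMM and 10.6 CPM in sham, Angptl7/Dmkn at 5.04 CPM in DMM and 7.66 CPM in sham, and Clic5/Pla1a at 3.37 CPM in DMM and 4.18 CPM in sham. The intervals of all neighbours in that order overlapped in both libraries. Tnn/Mmp13 had 33 UMIs in 1046 DMM cells and 6 UMIs in 601 sham cells, 4.60 CPM in DMM and 1.56 CPM in sham. The log2 ratio was 1.56 [0.29, 3.11]. Where cells needed at least 1000 genes, it was -0.10 in the best-matching new cluster, which held partly other cells. Erythroid-like cells had 0 UMIs in both libraries, where 3 UMIs would be 0.261 CPM in DMM and 0.173 CPM in sham.

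By summed UMIs, Gdnf lay mostly in Ccl7/C3 and Tnn/Mmp13, both large clusters. It had 72 UMIs in 33 of 1238 Ccl7/C3 cells in DMM and 58 UMIs in 17 of 959 in sham, 8.56 CPM in DMM and 8.29 CPM in sham. The top cell held 8.33% in DMM and 27.6% in sham. The log2 ratio was 0.05 [-0.47, 0.57] with all cells and 0.39 without that cell. Over 11 other settings, some with a best-matching new cluster of partly other cells, it lay between -0.52 and 1.55. Tnn/Mmp13 had 25 UMIs in DMM and 23 in sham, 3.48 CPM in DMM and 5.96 CPM in sham, a log2 ratio of -0.77 [-1.65, 0.11]. Myh11/Acta2 cells had 5 UMIs in DMM and 14 in sham, 4.22 CPM in DMM and 8.28 CPM in sham, which lay above Tnn/Mmp13 in both libraries with overlapping intervals. Positive cells made up 2.02% of Myh11/Acta2 in DMM and 3.92% in sham, and 2.67% of Ccl7/C3 in DMM and 1.77% in sham. In sham Rgs5/Abcc9 ranked first, at 8.73 CPM [1.80, 25.5], and the intervals of Rgs5/Abcc9, Ccl7/C3, Myh11/Acta2 and Tnn/Mmp13 overlapped.

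Artn was highest in Nrgn/Ihh cells, hypertrophic chondrocyte-like cells with Ihh and Panx3, in both libraries. It had 30 UMIs in 22 of 469 DMM cells and 77 UMIs in 57 of 630 sham cells, 3.89 CPM in DMM and 6.46 CPM in sham, a log2 ratio of -0.73 [-1.39, -0.11]. The chondrocyte-like clusters came next, A2m/Serpina1d at 1.98 CPM in DMM and 3.21 CPM in sham, and Pcp4/Rgs6 at 1.45 CPM in DMM and 3.07 CPM in sham. In sham the first interval did not overlap the next, and in DMM it did. The share of the Nrgn/Ihh cluster among connective tissue cells also differed, with 469 of 8382 in DMM and 630 of 7611 in sham. Artn was positive in 0.668% of DMM and 1.71% of sham connective tissue cells. Among erythroid-like cells it was positive in 0.780% in DMM and 0.982% in sham, so the DMM shares lay near each other. The erythroid-like clusters were not alike. In sham, Hist1h1b/Hist1h3c had 15 UMIs, 1.90 CPM [1.06, 3.13], and Car1/C1qtnf12 had 1 UMI, 0.121 CPM [0.003, 0.674]. In DMM they had 5 and 4 UMIs, with overlapping intervals. Whether erythroid-like cells make Artn was not tested. Thinned to 2000 UMIs, 4 of 468 DMM and 8 of 627 sham Nrgn/Ihh cells remained positive. That cluster was the deepest of those with 50 cells in each library, with medians of 16132 UMIs in DMM and 18330 in sham.

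**Figure D3:**
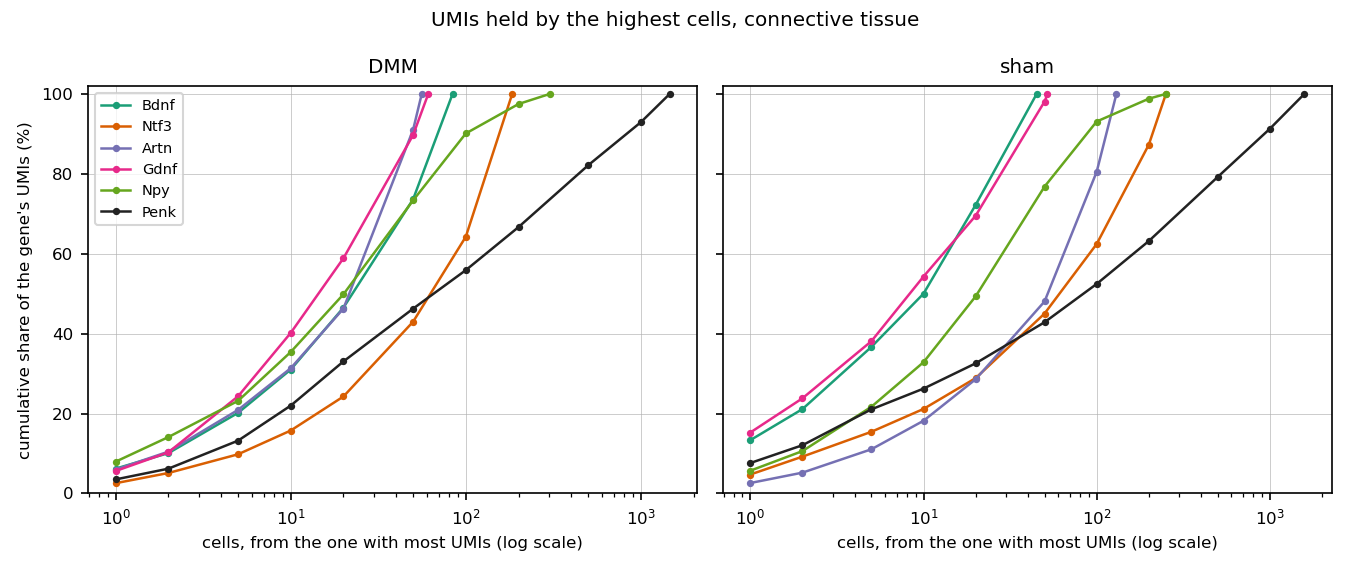
Cumulative share of each gene's UMIs over connective tissue cells, from the cell with most UMIs, DMM left and sham right (cells on a log axis). Penk is spread over most cells, 1460 in DMM and 1581 in sham, but does not climb slowest at first. The 20 highest cells hold 33.0% of Penk in DMM and 32.6% in sham, against 24.3% and 28.9% of Ntf3. The single top cell holds 6.20% of Bdnf in DMM and 13.3% in sham.

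Over all connective tissue clusters, 26 pairs of a gene and a cluster had at least 50 UMIs, and 2 were at least 1.5-fold higher in DMM and 15 lower. The share of all genes called in that cluster follows each count in brackets. In Ccl7/C3, 0 of 3 were higher (8.40%) and 2 of 3 lower (9.79%), Ntf3 and Penk. That Ntf3 ratio ran from -2.31 to 0.62 on the log2 scale over 11 other settings. It turned in 2 of them, where the best-matching new cluster overlapped Ccl7/C3 only in part. The Penk ratio was -0.45, under the mark, in the matching cluster with the 6 genes among the variable genes. In Tnn/Mmp13, 0 of 3 were higher (4.18%) and 2 of 3 lower (13.5%), Ntf3 and Npy. In A2m/Serpina1d, 0 of 3 were higher (1.96%) and 2 of 3 lower (9.16%), Artn and Npy. Both turned there, Artn to 1.23 when thinned, from 8 UMIs in DMM and 4 in sham, and Npy to 2.39 without the top cells.

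In Angptl7/Dmkn, 0 of 2 were higher (7.59%) and 2 of 2 lower (10.7%), Npy and Penk. In Serpina1e/Inhba, 1 of 2 was higher (4.13%), Npy, and 0 of 2 lower (9.68%). In Clic5/Pla1a, 0 of 2 were higher (6.57%) and 1 of 2 lower (13.9%), Penk. In Nrgn/Ihh 0 of 2 were higher (2.07%) and 1 of 2 lower (12.4%), Artn, at -0.73 and, when thinned, at -0.58, just under the mark. In Myh11/Acta2, where only Ntf3 had 50 UMIs, 0 of 1 was higher (5.93%) and 1 of 1 lower (12.0%). In Wif1/Rbp4, 0 of 2 were higher (3.23%) and 1 of 2 lower (16.8%), Npy, at -0.60 [-1.35, 0.13]. In Casr/Msmp, 0 of 2 were higher (3.47%) and 1 of 2 lower (15.0%), Npy, which turned without the top cells. In Pcp4/Rgs6, 0 of 2 were higher (2.15%) and 1 of 2 lower (12.1%), Ntf3, at -0.67 [-1.36, -0.026]. In Pi16/Cd34, 0 of 1 was higher (7.45%) and 1 of 1 lower (11.2%), Penk. In Car3/Ifitm5, 1 of 1 was higher (10.6%), Npy, 2.83-fold, and 0 of 1 lower (13.9%).

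**Figure D4:**
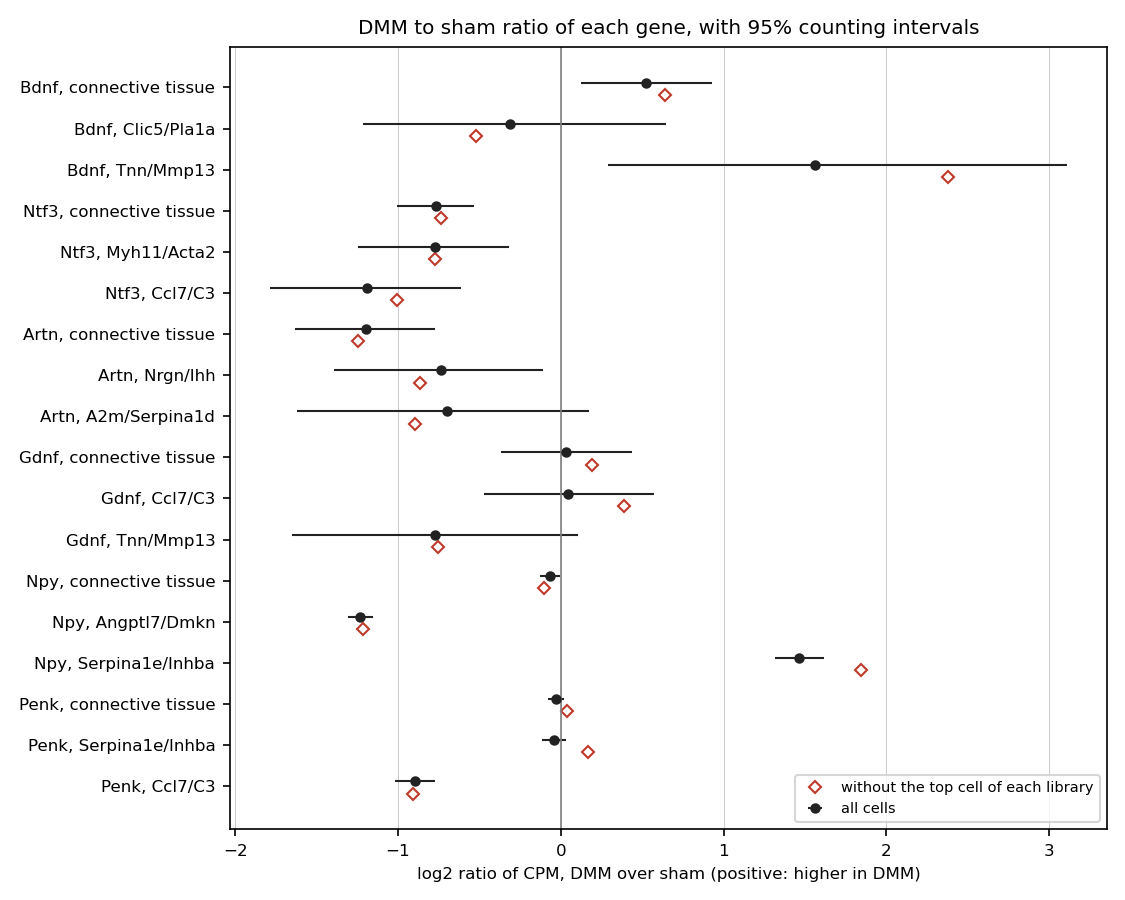
log2 ratio of CPM, DMM over sham, over connective tissue and in the 2 clusters with most UMIs of each gene, with 95% counting intervals (black) and with each library's top cell left out (open red diamonds). The Npy points of Angptl7/Dmkn (-1.23) and Serpina1e/Inhba (1.47) lie on opposite sides of 0.

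The TrkB gene Ntrk2, whose product binds that of Bdnf, was highest in Myh11/Acta2, at 435 CPM in DMM and 482 CPM in sham, and so was the TrkC gene Ntrk3, at 104 CPM in DMM and 216 CPM in sham, in the same cells where Ntf3 was highest. Within that cluster, 15 of 51 Ntf3-positive DMM cells (29.4%) and 56 of 94 in sham (59.6%) also had Ntrk3. Among Ntf3-negative cells the shares were 26.4% in DMM and 50.5% in sham. Ntrk2 was found in 62.75% of Ntf3-positive and 73.1% of negative cells in DMM, and in 68.1% and 67.9% in sham. Npy1r was found in 74.5% of Ntf3-positive and 61.4% of negative cells in DMM, and in 80.85% and 65.1% in sham. Ntf3-positive cells had medians of 4754 UMIs in DMM and 5568 in sham, and negative cells 4617 in DMM and 5064 in sham. Npy1r was also highest in Myh11/Acta2, at 324 CPM in DMM and 299 CPM in sham. Npy had 3 UMIs in those cells in DMM and 1 in sham. Npy2r had 51 UMIs in lining-like Clic5/Pla1a cells in DMM and 11 in sham, 5.20 CPM in DMM and 2.87 CPM in sham, and 1 UMI in all other connective tissue cells in DMM. Npy5r was at 0 UMIs.

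Gfra1 and Ret, the Gdnf receptor pair, peaked in chondrocyte-like Pcp4/Rgs6, at 196 CPM in DMM and 244 CPM in sham for Gfra1 and 11.9 CPM in DMM and 18.7 CPM in sham for Ret. Gdnf had 0 UMIs in those cells in both libraries. The artemin co-receptor Gfra3 had 1 UMI in connective tissue in each library. Oprd1, the delta opioid receptor, was highest in A2m/Serpina1d, at 11.8 CPM in DMM and 16.2 CPM in sham, while Oprm1 had 7 UMIs in DMM and 4 in sham and Oprk1 none. The p75 receptor Ngfr had 15 UMIs in DMM and 16 in sham.

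**Figure D5:**
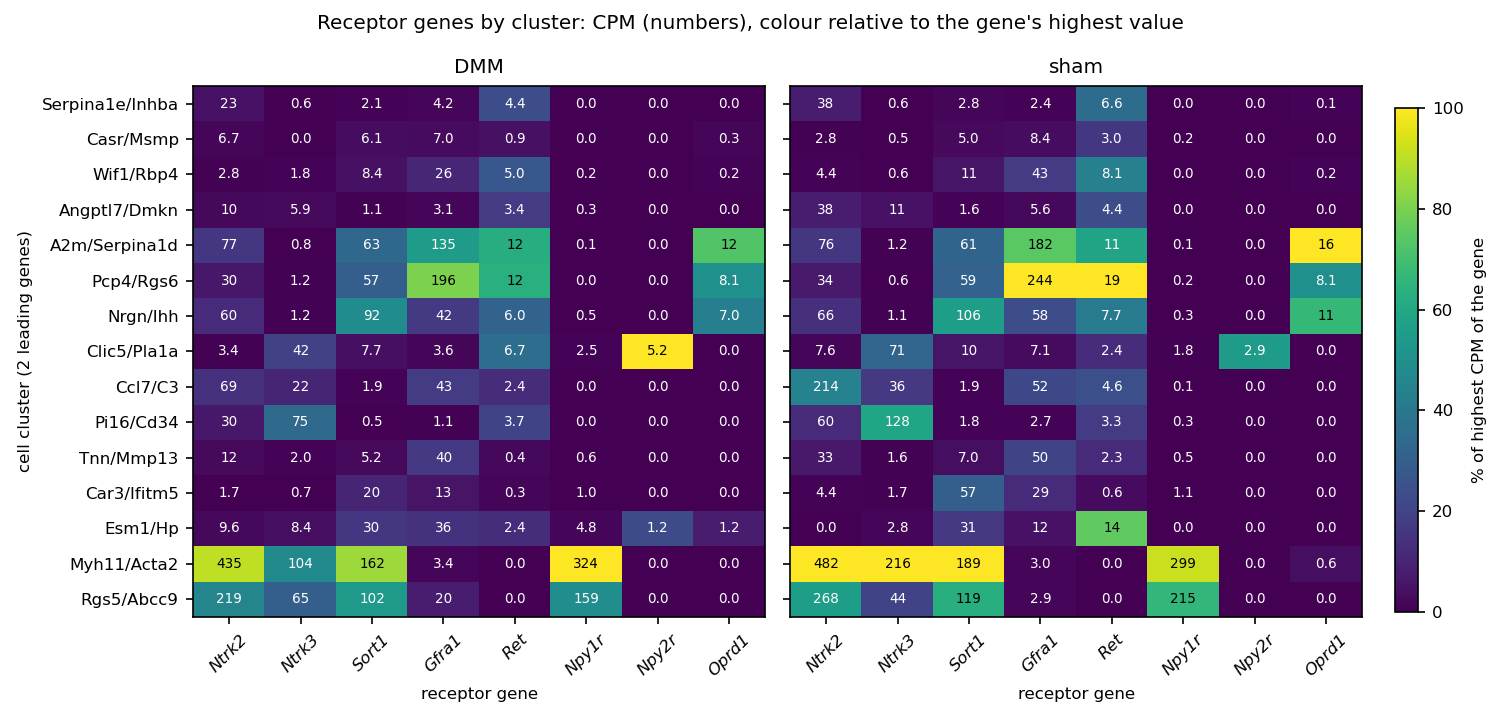
Receptor genes by cluster, DMM left and sham right, with the CPM printed and the colour as a percentage of the gene's highest value. Ntrk2, Ntrk3 and Npy1r peak in Myh11/Acta2, Gfra1 and Ret in Pcp4/Rgs6, and Oprd1 in A2m/Serpina1d.

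Over connective tissue, the other genes of these pathways are given for those with at least 50 UMIs, beside the background of 4.24% higher and 15.4% lower. Of 12 other ligands, 2 were at least 1.5-fold higher in DMM and 2 lower, with a median log2 ratio of 0.23. The higher ones included the heparin-binding factor Ptn, at 40.5 CPM in DMM and 26.6 CPM in sham. The lower ones included the cytokine Lif, at 10.2 CPM in DMM and 20.3 CPM in sham. Of 11 growth factor receptors, none was higher and 4 were lower, Ntrk2, Gfra1, Sort1 and Gfra2, with a median log2 ratio of -0.52. Ntrk2 stood at 38.4 CPM in DMM and 67.0 CPM in sham, and Gfra1 at 43.1 CPM in DMM and 73.1 CPM in sham.

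Of 8 other neuropeptide precursors, 2 were higher and 1 lower, with a median log2 ratio of 0.35. All 3 rested on few cells. Calca, the CGRP precursor, had 43 UMIs in 13 DMM cells, 29 of them in 1 cell, and 14 UMIs in 12 sham cells. Its log2 ratio was 1.63, and 0.35, under the mark, without the top cell of each library. The cholecystokinin gene Cck had 129 UMIs in 54 DMM cells and 81 in 41 sham cells, a log2 ratio of 0.68, and 0.38, also under the mark, without the top cells. The neurotensin gene Nts had 27 UMIs in 4 DMM cells and 45 in 11 sham cells, a log2 ratio of -0.73, and -1.68 without the top cells. Tac1, the substance P precursor, had 295 UMIs in DMM and 244 in sham and was highest in Ccl7/C3, as was its receptor Tacr1, at 24.5 CPM in DMM and 24.6 CPM in sham. Of 12 peptide and opioid receptors, 3 were higher, Npy2r, Galr2 and Calcrl, and 2 lower, Oprd1 and Adcyap1r1, with a median of 0.10. Calcrl, the core of CGRP and adrenomedullin receptors, was highest in lining-like cells, at 418 CPM in DMM and 448 CPM in sham, a cluster of 873 DMM and 364 sham cells. Of 16 genes listed for processing or breakdown of such peptides, none was higher and 5 were lower, with a median of -0.10. The list held Scg3 and Scg5, which do not encode enzymes. Scg3 was 1 of the 5 lower genes, with 270 UMIs in DMM and 751 in sham. Also lower were the convertases Pcsk1, with 55 UMIs in DMM and 106 in sham, and Pcsk2, with 197 in DMM and 301 in sham. The enkephalin-degrading protease Mme was lower too, at 23.6 CPM in DMM and 36.4 CPM in sham. Pcsk2 lay at the mark, with a log2 ratio of -0.61, and -0.58 without the top cells.

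Likeness of pattern was the smaller of both libraries' Pearson r of log2(CPM + 5) over 15 connective tissue clusters, among 12091 genes. The clusters share their libraries, so r is a description. Npy was most like Ptpn22 (0.84), Egln3 (0.82) and Pcdh17 (0.81), and Penk was most like Layn (0.76), Mmp3 (0.74) and Pnp (0.72). Ntf3 was most like Asb2 (0.83), Plin4 (0.83) and Wfs1 (0.83), and the genes most like Artn included Il17b (0.94) and the cartilage matrix gene Matn1 (0.92). Bdnf was most like Hspb7 (0.85), Dmd (0.85) and Fstl3 (0.84), and Gdnf was most like Slc3a2 (0.75), Cacna1g (0.72) and Ebf4 (0.70). Bdnf, Artn and Gdnf had 219, 221 and 212 UMIs in all, which limits their values.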

How the data were processed

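The deposited matrices hold UMI counts per gene and barcode, without normalisation; the authors made them with Cell Ranger 7.1.0 per the file headers, but version 3.0.1 with mm10 per the submitters' processing notes. The 6 columns of a bulk table match no sample label and were not used here. Barcodes under 500 genes or over 10% mitochondrial UMIs were dropped, as were Scrublet's 360 DMM and 463 sham doublets. Values per cell were scaled to 10000, logged and clustered on 2000 variable genes, 30 components and 15 neighbours (Leiden 1.0, no integration). Clusters were named from 21 marker lists, by score (at least 0.75), at least 3 passing markers and leading genes. Connective tissue was every cluster so named, and unnamed clusters with Serpinh1 in at least 50% of cells. Counts were summed per cluster and library and given as CPM. CPM carries exact Poisson, shares Clopper-Pearson and ratios conditional binomial 95% intervals; a floor is 3 counts. No test was run.

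Genes named were the 6 members, genes of 5 pathway lists, those most alike by cluster pattern, cluster leading genes and cell type markers. Pathway genes had at least 50 UMIs, except the receptors Npy5r, Oprk1, Gfra3, Oprm1 and Ngfr. Some genes that these rules name are not reported here. The members, lists and rules were chosen with earlier results of these data known, and the naming thresholds, the removal of the 6 genes from the variable genes and the choice of windows were set with the data in view. The alternatives tried were 1000 genes, 5% mitochondrial UMIs, doublets kept, Leiden 0.5 and 1.5, centring, median-of-ratios scaling, totals without the 50 highest genes, thinning, no top cell and other UMI minimums. Intervals were tested only on simulated independent Poisson counts, the model they assume. Those counts lack the clumping of UMIs in single cells, so coverage in these data was not tested. Python 3.11.15, scanpy 1.11.5, scipy 1.17.1, numpy 2.4.6, pandas 2.3.3, scikit-learn 1.9.0, leidenalg 0.10.2, igraph 0.11.9 and matplotlib 3.10.9 were used.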

Additional observations from a re-analysis of the deposited data

Results flagged for a closer look

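Npy ran in opposite directions in its 2 main clusters. The log2 ratio of DMM over sham was -1.23 in the Angptl7/Dmkn cluster, from 2144 UMIs in DMM and 3498 in sham, and 1.47 in the Serpina1e/Inhba cluster, from 1705 UMIs in DMM and 472 in sham. The difference was not tested, because each group had 1 library. Over 11 other settings the first stayed between -1.23 and -0.76 and the second between 1.31 and 2.32.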

How the results depend on the processing

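Over connective tissue, 61 of 66 values of the 6 ratios under other settings kept their sign, and 118 of 132 by cluster did. Where cells were clustered anew, each cluster was replaced by the new cluster with the highest Jaccard index. That index is the shared cells over all cells of either cluster, so a low index means largely other cells. Npy in Angptl7/Dmkn was -1.13 with median-of-ratios scaling, -0.91 thinned, -0.76 with doublets kept, -1.07 with at least 1000 genes, -1.14 with 5% mitochondrial UMIs, -0.94 at Leiden 0.5 and -1.15 with the 6 genes among the variable genes, a setting chosen after seeing the data. Npy over connective tissue was -0.16 with at least 1000 genes, -0.15 centred, -0.13 with the 6 genes variable, and turned to 0.067 with median-of-ratios scaling. Penk over connective tissue was 0.11 with that scaling and 0.036 without top cells, and in Serpina1e/Inhba it was 0.065 and 0.16 under the same settings, 0.035 thinned and 0.15 at Leiden 1.5. Bdnf in Clic5/Pla1a was -3.08 thinned and -1.67 with doublets kept, and in Tnn/Mmp13 it turned to -0.10 with at least 1000 genes (Jaccard 0.58). Artn over connective tissue was -0.32 thinned. Gdnf in Ccl7/C3 was 1.55 with 5% mitochondrial UMIs and -0.52 with the 6 genes variable (Jaccard 0.58 and 0.55). Ntf3 in Ccl7/C3 turned to 0.59 with doublets kept and 0.62 at Leiden 1.5, where the matches overlapped it only in part (Jaccard 0.44 and 0.33). Artn in A2m/Serpina1d ranged from -2.87 to 1.23. With centring, the match of that cluster held 97 DMM and 1241 sham cells (Jaccard 0.39). The rank of Rgs5/Abcc9 in sham became 4 for Bdnf and Gdnf without top cells and 5 for Gdnf thinned, and that of Nrgn/Ihh for Artn in DMM became 2 thinned. At 200 UMIs, 1 neuropeptide precursor was higher and 0 lower, and 1 peptide receptor was lower. The cause was not tested. Counts under 20 UMIs limit Bdnf, Artn and Gdnf by cluster. No paired analysis was possible because each group had 1 library.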
